A study of Mus musculus with 3 samples.

Results

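The IL-1 family genes examined here are 4 ligand genes, Il1a, Il1b, Il33 and Il18, the antagonist gene Il1rn, and the receptor genes Il1r1, Il1r2, Il1rap and Il1rl1. They were chosen by name, and all 9 were found among the 43472 rows of the table of normalized counts. Their transcripts were measured by RNA-seq in 3 libraries, replicates 1, 2 and 3 of 1 condition. The cells were primary fibroblasts grown from the tail tips of C57BL/6 mice, and each culture had been scratched as an in vitro wound. Every culture received the soluble micrograft (MG), a cell-depleted extract of disrupted mouse skin, together with PD0325901, which inhibits the kinase MEK upstream of ERK, and was collected after 5 h. Cultures without MG or without the inhibitor were not analysed here, so no effect of either was measured, and the only comparisons are between genes and between replicates. The series calls the samples biological replicates but does not say whether they came from separate mice, and a primary tail culture is a mixture of cells that may differ between preparations.

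IL-1α and IL-1β, the products of Il1a and Il1b, bind the receptor IL1R1, which then recruits the co-receptor IL1RAP and signals through MyD88, IRAK kinases and TRAF6 to NF-κB and MAP kinases. The antagonist encoded by Il1rn occupies IL1R1 without signalling, and IL1R2 is a decoy that binds IL-1 but lacks the intracellular signalling domain. IL-33 is an alarmin held in the nucleus of barrier and stromal cells. Its receptor ST2, encoded by Il1rl1, also pairs with IL1RAP, and the same gene gives rise to a soluble ST2 that captures IL-33. IL-18 acts on a separate receptor pair, IL18R1 and IL18RAP. In skin wounds, IL-1 released from damaged cells is known to drive fibroblasts to make cytokines, chemokines and matrix proteases.

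Levels are given as normalized counts, for which the reads on each gene were divided by a size factor of the library. Reads recovered from them summed to between 17244505 and 27037783 per library, and the limit that 0 reads allow, taken as 3 reads, equalled between 2.11 and 3.56 normalized counts. Such limits and the intervals below cover counting error only. All 8 fibroblast markers, among them Col1a1 and Pdgfra, were detected at 10 or more normalized counts in each library. Of these, Thy1 was at 2031, 15760 and 1652 and Lum at 5073, 289 and 1164 normalized counts in replicates 1, 2 and 3. Replicate 2 lay more than 2-fold from both other libraries in 10.1% of 13154 genes, against 4.26% for replicate 1 and 3.58% for replicate 3. What set it apart was not tested. Results on the family are therefore given library by library, and where leaving out a replicate moved a mean or a ratio by more than 1.5 times, that value is printed beside it.

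Transcripts of the signalling receptors Il1rl1 and Il1r1 exceeded per kb those of every ligand gene in each library. Il1rl1 was among the most abundant transcripts of the cells, Il1r1 and Il1rap were at middle levels, and Il18 and Il1a were low. Il1b, Il33, Il1rn and Il1r2 were near the limit of detection. By the minimum of 10 normalized counts in every library, 5 of the 9 genes were detected, against 60.1% of the 20322 genes with reads. Divided by the length of their exons, which allows different genes to be compared, the levels spanned from 4418 ± 1347 normalized counts per kb for Il1rl1 to 1.19 ± 0.593 for Il1rn (SD, n = 3).

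**Figure D1:**
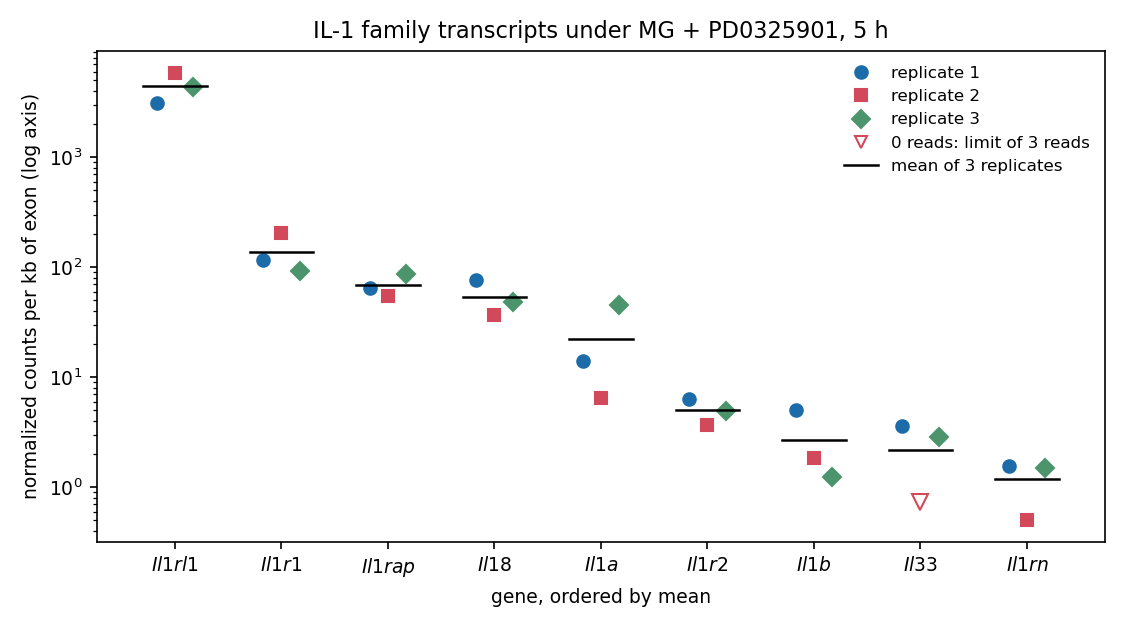
Level of each gene in normalized counts per kb of exon on a log axis, with a point for each of the 3 libraries and a line at the mean; an open triangle marks 0 reads, drawn at the limit of 3 reads. Il1rl1 lies above all others in every library, between 3123 and 5811, and the 4 genes at the right lie under 7 in every library.

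Il1rl1, the gene of the IL-33 receptor ST2, had 21528, 40059 and 29782 normalized counts in replicates 1, 2 and 3. This level was high in every library, lowest in replicate 1 and highest in replicate 2. The mean was 30456 ± 9284 normalized counts (SD, n = 3), and the highest library stood 1.86-fold above the lowest. In order of normalized counts it was transcript number 98, 38 and 70 of all genes in replicates 1, 2 and 3, and above 99.2%, 99.7% and 99.4% of the 12204 detected genes. Ordered by level per kb, among 18890 genes with reads and a known length, it stood at number 327, 120 and 217. Its level per kb was 32.1-fold above that of Il1r1 by the means. The gene-level counts include transcripts of membrane-bound and soluble ST2, which cannot be separated in this table. Il1rl1 lies on chromosome 1 from 40429570 to 40465415 on the plus strand (GRCm38), with 5 annotated transcripts and 6894 bases of exon.

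ST2 is also made by mast cells and some endothelial cells, so markers of these cells were read in the same libraries. None of 6 mast cell markers was detected in every library, and they summed to 0, 7.05 and 0 normalized counts. Cpa3, Kit, Fcer1a and Tpsb2 had 0 reads in all 3 libraries, and Mcpt4 and Cma1 had 7 and 3 reads in replicate 2 and 0 elsewhere. Of 5 endothelial markers 1 was detected, Egfl7, with 69.5, 53.6 and 49.8 normalized counts, and the list summed to 90.3, 244 and 55.7. Pecam1 had 9.55, 3.52 and 2.37 normalized counts and Cdh5 had 0, 0 and 1.19. Tek, a further endothelial marker, was higher in replicate 2, with 6.95, 185 and 2.37 normalized counts, and the part of such cells in the Il1rl1 level was not tested.

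Il33, the ligand gene of ST2, stood at the opposite end of the scale. It had 12, 0 and 7 reads in replicates 1, 2 and 3, which equalled 10.4, 0 and 8.30 normalized counts. The exact 95% Poisson intervals of these read counts were 6.20 to 21.0 in replicate 1, 0 to 3.69 in replicate 2 and 2.81 to 14.4 in replicate 3. These intervals are in reads, and 1 read equalled 0.868, 0.705 and 1.19 normalized counts in replicates 1, 2 and 3. Whether they overlap therefore does not compare levels between libraries. Against the limit of 3 reads in replicate 2, Il33 was 4.93-fold higher in replicate 1 and 3.93-fold higher in replicate 3. These folds leave out the counting error of replicates 1 and 3. Replicates 1 and 2 differed in the exact binomial test on reads (adjusted p = 0.000263). Replicates 2 and 3 together fell below the minimum of 10 reads set for this test. Per kb, Il1rl1 exceeded Il33 by 865-fold in replicate 1, by at least 7933-fold in replicate 2 and by 1503-fold in replicate 3. The ratio of the means was 2044, and it was 3524 without replicate 1 and 1148 without replicate 2. The mean of Il33 was 6.24 ± 5.51 normalized counts (SD, n = 3), 4.15 without replicate 1 and 9.36 without replicate 2.

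Il1r1, which encodes the signalling receptor of IL-1α and IL-1β, had 735, 1309 and 584 normalized counts in replicates 1, 2 and 3. Replicate 2 was the highest, 1.78-fold above replicate 1 and 2.24-fold above replicate 3 (exact binomial test, adjusted p = 1.11e-45 and 5.52e-64). The average was 876 ± 383 normalized counts (SD, n = 3). For the co-receptor gene Il1rap the values were 740, 624 and 984 normalized counts, and they averaged 783 ± 184 (SD, n = 3). Here replicate 2 was the lowest, and the highest library exceeded the lowest by 1.58-fold, the smallest range of the 5 detected genes. Of the pair of genes whose products form the IL-1 receptor complex, 1 was thus highest and the other lowest in the same library. The ratio of Il1rap to Il1r1 per kb of exon was 0.564, 0.267 and 0.943 in replicates 1, 2 and 3. Which of the pair was higher depends on the length used, as the ratio of the means was 0.50 with the length of all exons and 1.15 with that of the longest transcript. Il1r1 lies on chromosome 1 from 40225080 to 40317257 and Il1rap on chromosome 16 from 26581704 to 26730117, both on the plus strand (GRCm38).

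Il1r2, the gene of the decoy receptor, had 12.2, 7.05 and 9.48 normalized counts in replicates 1, 2 and 3, from 14, 10 and 8 reads. No difference beyond counting error was detectable in any pair of libraries at this depth (exact binomial test, adjusted p from 0.317 to 0.821). Per kb, the signalling receptor Il1r1 exceeded the decoy 18.1-fold, 55.7-fold and 18.5-fold in replicates 1, 2 and 3. The ratio of Il1r2 to Il1r1 by the means was 0.0364, and 0.0547 without replicate 2. Decoy transcripts were thus scarce beside those of the signalling receptor in each culture, and most so in replicate 2, where Il1r1 was highest.

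Il1a varied more between the cultures than the other 4 detected genes among the 9. It had 27.8, 12.7 and 90.1 normalized counts in replicates 1, 2 and 3, from 32, 18 and 76 reads. Replicate 3 was 3.24-fold above replicate 1 and 7.10-fold above replicate 2, and all 3 pairs of libraries differed in the exact binomial test (adjusted p = 0.0155 between replicates 1 and 2, and 3.56e-08 and 6.69e-17 for replicate 3 against them). The mean was 43.5 ± 41.0 normalized counts (SD, n = 3), and 20.2 without replicate 3. The biological coefficient of variation that edgeR estimated for Il1a was 67.9%, above that of 91.5% of 15268 genes, against a median of 32.7%. For Il1rl1 it was 28.1%, for Il1rap 26.6%, for Il1r1 32.1% and for Il18 45.9%. The genes near the limit of detection had 96.8% for Il33, 64.4% for Il1b, 60.6% for Il1rn and 52.2% for Il1r2. This coefficient depends on the level of a gene, and the trend that edgeR fitted was 52.9% at Il1a and 27.1% at Il1rl1. The trend was 50.5% at Il18, 27.2% at Il1r1 and 27.8% at Il1rap. At Il33, Il1b, Il1rn and Il1r2 it was 67.2%, 67.3%, 67.1% and 65.1%. Il1a, Il33, Il1r1 and Il1rl1 thus lay above the trend, and Il18, Il1rap, Il1b, Il1rn and Il1r2 lay below it. Il1a lies on chromosome 2 from 129299610 to 129309972 on the minus strand (GRCm38), where it shares exon sequence with the opposite-strand gene Gm14023. That gene had 2, 3 and 2 reads, and reads of the shared stretch cannot be assigned with certainty, because the sources used here do not state whether counting used strand.

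Leukocytes are a further source of IL-1, so their markers were read as well. The 10 leukocyte markers summed to 222, 297 and 890 normalized counts in replicates 1, 2 and 3, and 3 of them were detected in every library. Most of the sum in replicate 3 came from Lyz2, with 123, 62.7 and 601 normalized counts. The other detected markers were highest in replicate 2, Csf1r with 57.3, 179 and 161 and Cd68 with 22.6, 33.1 and 27.3. Ptprc, which encodes CD45, had 2, 1 and 1 reads, while Tyrobp had 0, 3 and 13. Laptm5, Emr1, Cd52 and Itgam were also highest in replicate 3, and Cd74 was highest in replicate 1. Laptm5 had 1.74, 4.93 and 36.7 normalized counts and Emr1 had 0, 6.34 and 23.7. Of the 7 leukocyte markers tested between replicates 1 and 3, 5 were lower in replicate 1 and 0 were higher. The shares over all genes tested were 26.1% and 25.1%. The part of these cells in the Il1a level was not tested. In bulk samples fewer cells of a type and less RNA per cell cannot be told apart.

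Il1b, the other IL-1 ligand gene, was near the limit of detection. It had 11, 5 and 2 reads in replicates 1, 2 and 3. The exact 95% Poisson intervals were 5.49 to 19.7, 1.62 to 11.7 and 0.242 to 7.22 reads, which overlap as read counts. On the normalized scale these were 9.55, 3.52 and 2.37, averaging 5.15 ± 3.86 (SD, n = 3), or 2.95 once replicate 1 was left out. Il1b was not highest in replicate 3, unlike Il1a. The pairs with replicate 1 did not pass the exact binomial test (adjusted p = 0.126 against replicate 2 and 0.138 against replicate 3). Il1b lies on chromosome 2 from 129364570 to 129371139 and shares exon sequence with the antisense gene Il1bos, which had 0 reads in all libraries.

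Il1rn, the gene of the IL-1 receptor antagonist, had 8.68, 2.82 and 8.30 normalized counts in replicates 1, 2 and 3, from 10, 4 and 7 reads. At this depth no pair of libraries passed the test (exact binomial test, adjusted p from 0.112 to 1). Per kb, Il1a exceeded Il1rn by 8.97-fold, 12.6-fold and 30.4-fold in replicates 1, 2 and 3. The ratio of Il1rn to Il1a by the means was 0.0541, and 0.101 without replicate 3. Against Il1b the antagonist was lower in replicates 1 and 2, with ratios of 0.313 and 0.276, and above it in replicate 3, with 1.21. Each of these ratios to Il1b rests on 11 or fewer reads on either side, and their order was not settled at this depth.

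Il18, whose protein needs cleavage before it is active, had 78.2, 38.0 and 49.8 normalized counts in replicates 1, 2 and 3, from 90, 54 and 42 reads. Replicate 1 was the highest, 2.05-fold above replicate 2 and 1.57-fold above replicate 3. Both differences passed the exact binomial test (adjusted p = 6.2e-05 and 0.0360), and the difference between replicates 2 and 3 did not (adjusted p = 0.299). The mean was 55.3 ± 20.6 normalized counts (SD, n = 3), and per kb, at 53.7 ± 20.0 (SD, n = 3), it was the highest of the 4 ligand genes. Il18 lies on chromosome 9 from 50554827 to 50581840 on the plus strand (GRCm38).

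By level per kb the order was Il1rl1, Il1r1, Il1rap, Il18, Il1a, Il1r2, Il1b, Il33 and Il1rn. Il1rl1 and Il1r1 were first and second in every library, with no overlap between neighbouring ranges down to Il1rap. The ranges of Il1rap and Il18 overlapped, and Il18 was above Il1rap in replicate 1. Il18 was above Il1a in 3 of 3 libraries, although the ranges of their levels overlapped. In replicate 3 they were close, at 48.3 and 45.6 per kb, from 42 and 76 reads. Without division by length Il1a was the higher there, with 90.1 against 49.8 normalized counts. The lowest Il1a value, 6.42, lay just above the highest of Il1r2, 6.37. Below that, Il1b, Il33 and Il1rn changed places between libraries, and the spread between replicates did not separate them.

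Promoters were searched because the study concerns AP-1, a factor downstream of ERK, and are shown for the IL-1 ligands Il1a and Il1b, their antagonist Il1rn and the most abundant gene, Il1rl1. All 9 genes were matched to 14 RefSeq start sites (GRCm38.p6), and the 250 bases before each start were searched on both strands for the AP-1 letters TGANTCA and for TATAAA. An AP-1 match was found at 2 of the 14 starts, those of Il1a and the upstream start of Il1rn, and 6.75% of all 32851 promoters hold one. TATAAA, present in 12.4% of all promoters, was found before the starts of Il1a, Il1b, Il33 and Il18, in the last on the opposite strand. In the sequences below, written 5′ to 3′ on the strand of the gene and ending at the base before the start, capitals mark AP-1 matches and TATAAA on the strand of the gene.
Il1a (chr2:129309973-129310222, minus strand): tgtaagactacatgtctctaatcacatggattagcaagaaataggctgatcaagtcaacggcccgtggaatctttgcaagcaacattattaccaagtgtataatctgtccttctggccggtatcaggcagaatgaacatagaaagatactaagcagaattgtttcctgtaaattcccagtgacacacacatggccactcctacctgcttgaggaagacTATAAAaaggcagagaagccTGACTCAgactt
Il1b (chr2:129371140-129371389, minus strand): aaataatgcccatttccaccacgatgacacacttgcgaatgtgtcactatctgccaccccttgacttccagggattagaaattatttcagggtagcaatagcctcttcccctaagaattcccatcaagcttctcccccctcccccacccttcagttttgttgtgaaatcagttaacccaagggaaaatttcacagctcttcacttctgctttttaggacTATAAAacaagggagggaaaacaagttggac
Il1rn, upstream start (chr2:24336610-24336859, plus strand): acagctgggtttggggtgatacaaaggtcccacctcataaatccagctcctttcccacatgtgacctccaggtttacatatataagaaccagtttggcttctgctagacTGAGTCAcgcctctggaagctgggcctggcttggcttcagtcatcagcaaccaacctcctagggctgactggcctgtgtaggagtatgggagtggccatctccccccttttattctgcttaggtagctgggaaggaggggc
Il1rl1, upstream start (chr1:40429320-40429569, plus strand): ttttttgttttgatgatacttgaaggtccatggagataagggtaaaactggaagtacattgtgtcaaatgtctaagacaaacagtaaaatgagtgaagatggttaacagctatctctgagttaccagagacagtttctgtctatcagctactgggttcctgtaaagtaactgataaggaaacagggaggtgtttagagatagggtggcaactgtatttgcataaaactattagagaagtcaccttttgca
Il1rl1, downstream start (chr1:40439379-40439628, plus strand): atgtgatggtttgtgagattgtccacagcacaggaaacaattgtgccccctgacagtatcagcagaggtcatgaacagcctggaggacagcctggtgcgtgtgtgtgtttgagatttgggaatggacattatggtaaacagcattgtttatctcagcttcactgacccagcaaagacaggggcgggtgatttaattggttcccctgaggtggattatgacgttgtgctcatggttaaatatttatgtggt

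In Il1a the TATAAA begins at position -32 and the AP-1 match at position -12 from the start, and in Il1b the TATAAA begins at position -31. The AP-1 match of Il1rn begins at position -141. Neither window of Il1rl1 held either run of letters. A loose form of the NF-κB motif, GGG followed after 5 bases by CC, was found on either strand at 4 of the 14 starts, belonging to Il1rn, Il1r1 and Il1rap, and in 45.8% of all promoters. A match is a description of the letters and not a measured site, and the counts do not show which start was used.

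Each pair of libraries was compared by a two-sided exact binomial test on recovered reads. All genes with 10 or more reads summed over the pair were tested, and p-values were adjusted over them by the Benjamini-Hochberg procedure. These tests compare libraries and not conditions. Replicates 1 and 2 differed in 6 of the 9 genes, against 68.4% of all 14771 genes tested. Il1a, Il33, Il18 and Il1rap were higher in replicate 1, as were 32.7% of all genes, and Il1r1 and Il1rl1 were lower there, as were 35.7%. Replicates 1 and 3 differed in 5 of 9, against 51.1% of 14316. Here Il18 and Il1r1 were higher in replicate 1, beside 25.1% of all genes, and Il1a, Il1rap and Il1rl1 were lower, beside 26.1%. Replicates 2 and 3 differed in 4 of the 7 genes with enough reads, against 62% of 14344. Il1r1 and Il1rl1 were higher in replicate 2, beside 32% of all genes, and Il1a and Il1rap were lower, beside 30%. The shares of the family lay near those of all genes. With a difference of more than 2-fold also required, 3, 1 and 2 of the genes were left in these pairs, and Il1a was among them in each. The matching shares over all genes were 19.8%, 8.78% and 16.1%.

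**Figure D2:**
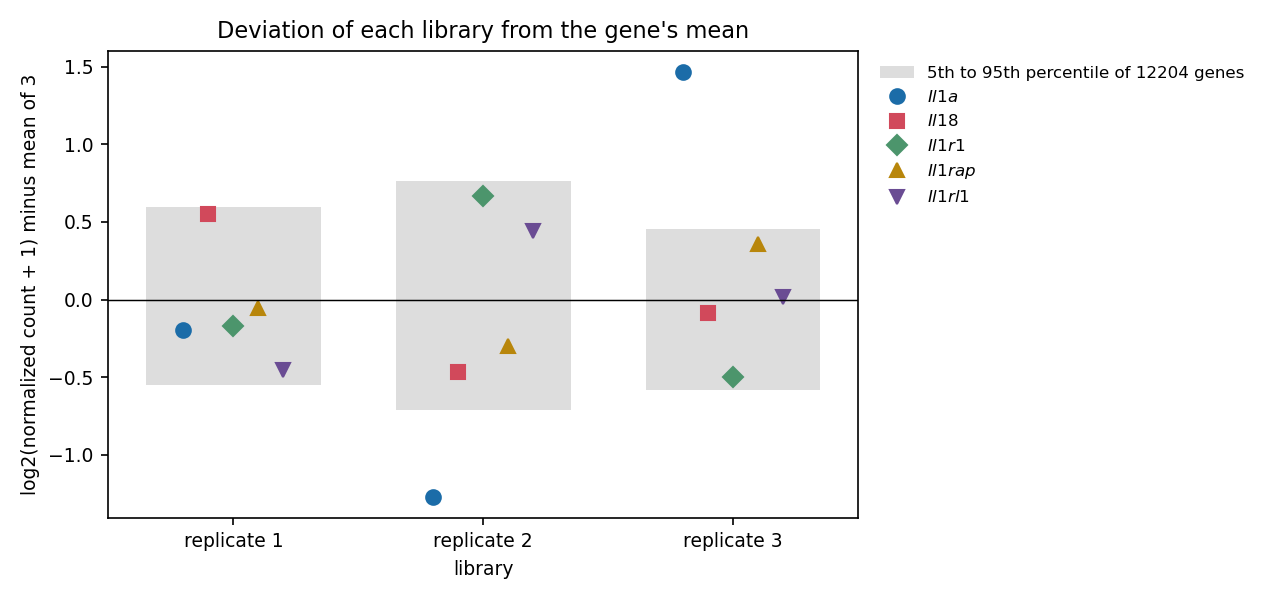
Difference of each library from the mean of the 3 libraries, in log2(normalized count + 1), for the 5 detected genes; grey areas span the 5th to the 95th percentile of 12204 detected genes. Il1a lies outside the grey area at -1.27 in replicate 2 and at 1.47 in replicate 3, and the other 4 genes lie inside it in each library.

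Among the 5 genes with a mean of at least 10 normalized counts, Il1a alone had a replicate more than 2-fold from both others, as had 15.8% of all 13154 genes. Its replicate 2 lay below the others, which held for 4.87% of all genes, and its replicate 3 above them, which held for 1.28%. Il1a, Il18 and Il1rap were lowest in replicate 2, that is 3 of the 5 detected genes, against 37.3% of all detected genes. Il1r1 and Il1rl1 were highest there, 2 of 5, against 40.6%. As a measure of spread, the SD of log2(normalized count + 1) had a median of 0.52 over the 5 genes and 0.30 over all detected genes. Without replicate 2 these medians were 0.33 and 0.20. Over all 9 genes the median was 0.60, and 0.29 without replicate 2. These sets were not matched for level. Il1a and Il18 stood above at most 18.1% and 15.6% of detected genes in any library, and counting error widens this SD at low levels. The medians therefore do not show that the family varied more than other genes of like level.

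For each detected gene, the 3 genes of the table with the closest pattern over the 3 libraries were looked up by the largest difference in log2(normalized count + 1) after centring. With 3 libraries such likeness is a description only. For Il1rl1 they were Slc36a4, Sh3pxd2a and Nek4, for Il1r1 they were Sepp1, Ckap2 and Nfix, for Il1rap they were Cyp4f16, Zfyve27 and Emd, and for Il18 they were Rnaseh2c, Mycbp and Id3, each within 0.0167. Between 83 and 219 genes lay within 0.1 of each of these 4 patterns. For Il1a only 1 gene, 3425401B19Rik, lay within 0.1, followed by Gchfr at 0.14 and Palmd at 0.19.

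Il1rl1 lies in a cluster of 6 receptor genes on chromosome 1, in the order Il1r2, Il1r1, Il1rl2, Il1rl1, Il18r1 and Il18rap, all on the plus strand within 478 kb. Neighbours differed widely in level. Il18r1, which encodes the IL-18 binding chain and starts 136 bases after the annotated end of Il1rl1, had 12.2, 7.75 and 5.93 normalized counts in replicates 1, 2 and 3. The partner gene Il18rap was detected in each library, with 340, 261 and 536 normalized counts, and per kb exceeded Il18r1 in all 3 libraries. Il1rl2, the receptor gene for the IL-36 cytokines, had 33.0, 765 and 104 normalized counts. Replicate 2 was 23.2-fold above replicate 1 and 7.34-fold above replicate 3 (exact binomial test, adjusted p = 2.58e-221 and 3.48e-122). Il1r1, Il1rl2 and Il1rl1 were thus highest in replicate 2, as were 40.6% of all detected genes, and Il1r2, Il18r1 and Il18rap were not.

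**Figure D3:**
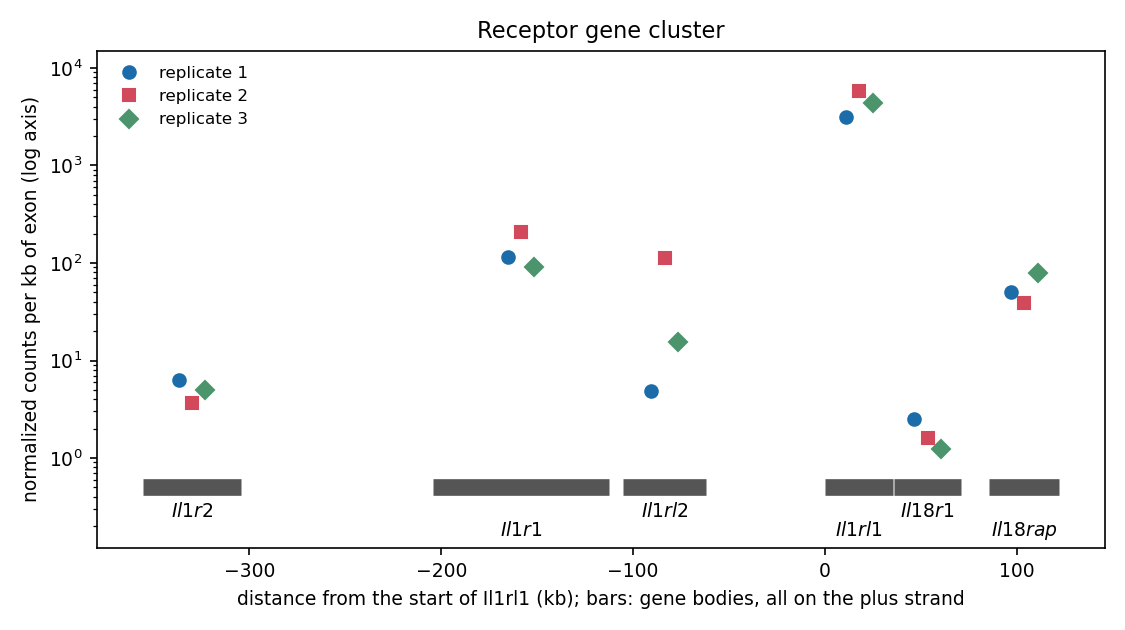
Level of the 6 receptor genes in normalized counts per kb of exon on a log axis, against distance from the start of Il1rl1 in kb; bars are gene bodies and points are the 3 libraries. Il1rl1, between 3123 and 5811, stands beside Il18r1, which lies under 3 in every library, and Il1rl2 spreads from 4.84 to 112.

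Of the 12 other genes of the family, 3 were detected in every library and 5 had 0 reads throughout. Over the 20322 genes with reads, the share detected was 60.1%. The 3 were Il18rap, Il1rl2 and Il18bp, the last encoding a secreted inhibitor of IL-18. Il18bp had 45.2, 35.2 and 33.2 normalized counts, and no pair of libraries passed the test (exact binomial test, adjusted p from 0.305 to 0.941). Il1f9, the older name of the gene of IL-36γ, had 54.7, 14.8 and 5.93 normalized counts, from 63, 21 and 5 reads. Replicate 1 was higher than replicate 2 and replicate 3 (exact binomial test, adjusted p = 9.54e-08 and 1.72e-09). The remaining IL-36 family genes of the list, Il1f5, Il1f6, Il1f8 and Il1f10, had 0 reads in all 3 libraries.

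For the intracellular side of the receptor pathway 12 genes were listed, which did not include the NF-κB subunits. All 12 were detected, against 60.1% of the 20322 genes with reads. Among them were the adaptor Myd88, the Irak kinases, Traf6 and the kinase Map3k7 with its Tab partners. None of the 12 had a replicate more than 2-fold from both others, against 15.8% of 13154 genes. Tollip was the most abundant by normalized counts, at 2584 ± 202 (SD, n = 3). Map3k7, which encodes the kinase TAK1, had the smallest range, with 1807, 1656 and 1785 normalized counts. The largest ranges were 1.77-fold for Tab3 and 1.71-fold for Irak3, whose product restrains the pathway. The SD of log2 values had a median of 0.20 over the list, against 0.30 over all detected genes, which were not matched for level. Small differences were nonetheless called. Replicate 1 was higher than replicate 2 in 4 of the 12 genes and lower in 5, against 32.7% and 35.7% of all genes tested. Set against replicate 3, it was higher in 1 and lower in 6, against 25.1% and 26.1%. Replicate 2 was higher than replicate 3 in 3 and lower in 6, against 32% and 30%.

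Of the 12 genes for processing and inflammasomes, 6 were detected in every library, against 60.1% of the 20322 genes with reads. Capn2 and Capns1, subunits of the calpain that cleaves the IL-1α precursor, had means of 12971 ± 1845 and 7608 ± 793 normalized counts (SD, n = 3). Casp1, the protease that activates IL-1β and IL-18, had 9, 8 and 8 reads. Pycard, the inflammasome adaptor, had 0, 13 and 0 reads, and Nlrp1b had 0 in all libraries. P2rx7, an ATP-gated channel, had 171, 460 and 59.3 normalized counts, with replicate 2 the highest. Capn1, a catalytic calpain subunit, was also highest there, with 676, 1710 and 1118. Nlrp3, a sensor named here after its values were seen, had 13.9, 7.75 and 52.2 normalized counts. It was highest in replicate 3, as were Il1a and 27.9% of all detected genes, while Il1b was lowest there.

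Most genes of a list known to respond to IL-1 in fibroblasts were lowest in replicate 2. Of 17 listed genes, 16 were detected in every library, against 60.1% of the 20322 genes with reads. Replicate 1 was higher than replicate 2 in 15 of the 17 and lower in 1, against 32.7% and 35.7% of all genes tested. Replicate 2 was higher than replicate 3 in 0 and lower in 16, against 32% and 30%. Between replicates 1 and 3, 5 were higher and 11 lower in replicate 1, against 25.1% and 26.1%. The median log2 ratios of replicate 1 to 2, 2 to 3 and 1 to 3 were 0.99, -1.35 and -0.20, against -0.02, 0.02 and 0.02 over all genes tested. Of the 16 detected genes, 14 had their lowest value in replicate 2, against 37.3% of all detected genes, and in 8 of the 17 replicate 2 lay more than 2-fold below both others, against 4.87%. Of 6 keratinocyte markers 2 were detected, and the list summed to 1589, 327 and 1516 normalized counts. Sfn, most of the sum, was lowest in replicate 2 with 1507, 287 and 1482, while Krt10 was lowest in replicate 3 with 80.8, 39.5 and 32.0. The defining markers Krt5 and Krt14 had 1, 0 and 0 reads and 0, 0 and 2 reads, and the part of such cells in the response genes was not tested. The list was drawn up with its chemokines already known to be low there, so its direction is not independent evidence. Ptgs2, which encodes the prostaglandin synthase COX-2, stood highest in normalized counts and had the smallest range, with 55003, 44099 and 54200 normalized counts. Among the detected genes Cxcl2 and Ccl20 had the largest ranges, 10.9-fold and 9.85-fold. Csf2, the gene not detected in every library, had 71, 2 and 93 reads. Il6 went the other way, named here after its values were seen, with 788, 1430 and 1491 normalized counts, lowest in replicate 1. In replicate 2, where most of these genes were lowest, Il1a was also lowest of the 3 while its receptor gene Il1r1 was highest. Il1a was at 27.8 normalized counts in replicate 1 and 90.1 in replicate 3. In that pair 11 of the 17 genes were lower in replicate 1 and 5 were higher, among them Cxcl2 and Ccl20. The study lists Cxcl2, Ccl20 and Ptgs2 among genes raised by MG, and reports many cell migration genes affected by PD0325901. Whether IL-1 acted on any gene of the list was not tested.

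**Figure D4:**
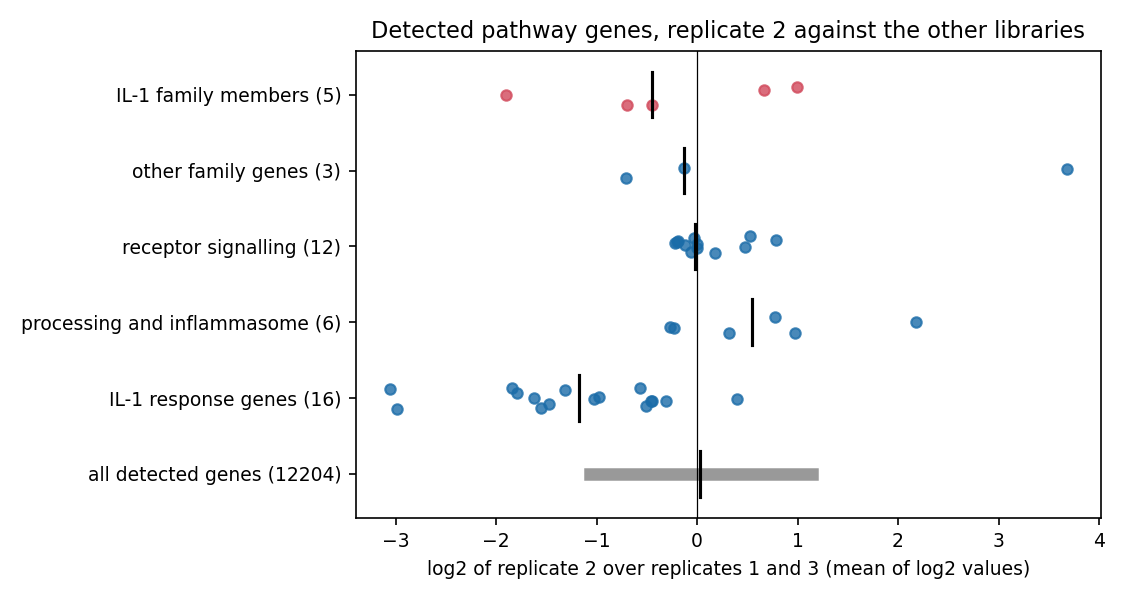
Log2 ratio of replicate 2 to the mean of replicates 1 and 3 for the detected genes of each list, with a line at the median and the number of genes in brackets; the grey bar spans the 5th to the 95th percentile of all detected genes. The response genes have a median of -1.17 and 15 of 16 below 0, against 0.03 and 47.8% over all detected genes. Their list was drawn up with its chemokines already known to be low in replicate 2. The signalling genes have a median of -0.02, and the 5 family genes lie on both sides of 0.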

How the data were processed

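RNA was sequenced from 3 libraries of wounded mouse fibroblasts given MG and PD0325901 for 5 h. Per the labels and the study's methods, the authors filtered adapters, aligned single-end reads to mm10 with TopHat2 2.0.13, kept unique reads and counted them per gene with HTSeq 0.5.3p3. The annotation, the strand setting and the libraries used for the size factors are not given in the sources used here. The deposited signal holds normalized counts, which the authors obtained by dividing reads by 1 size factor per library with DESeq. The table has 3 other columns of sample values, which matched no sample given and were left out.

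Reads were recovered by division, and in each library 100% of values above 0 came out whole within 0.05 of a read. Library totals were 22540518, 27037783 and 17244505 reads on genes. Log2 values used a pseudocount of 1, and detection a minimum of 10 normalized counts in every library. Replicate pairs were compared by exact binomial tests (threshold 0.05 after Benjamini-Hochberg adjustment). These ask only whether a pair of libraries differs beyond counting error, and their p-values do not measure the size of the spread between cultures. edgeR 4.0.16 gave TMM factors and coefficients of variation. Python 3.11.15 with scipy 1.17.1 was used for the rest. Exon lengths and positions came from GENCODE M21 on GRCm38, the build of mm10. In simulated data the pair tests found 200 of 200 genes changed 4-fold in each pair, with 8 to 10 false calls among at least 14318 genes. The count of replicates apart found 200 of 200 in replicate 2 with 5 false calls among 13177 genes. The simulated libraries held counting error only and no variation between cultures. The changed genes all had higher means than Il1a, Il1b, Il33, Il1rn and Il1r2, so the simulation does not show how often changes in these are found.

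The family genes, pathway lists, markers and tests were chosen with earlier results of these data known. All family genes were named. From each pathway list the rule took up to 4 detected genes: that with the highest mean, the pair with the largest range and that with the smallest. Pathway genes named outside the rule (Il18r1, Il1f9, Il1f5, Il1f6, Il1f8, Il1f10, Casp1, Pycard, Nlrp1b, Nlrp3, Csf2 and Il6) were chosen after their values were seen, as were the markers given with values. Alternatives were other scalings, pseudocounts, minimums, fold limits and lengths, and each replicate left out.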

Additional observations from a re-analysis of the deposited data

How the results depend on the processing

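No paired analysis was possible because all 3 libraries belong to the same group. With 1 condition no direction between groups could change. Of 146 recomputed values, 122 kept within the limits set, among them all 45 means of the family genes, although leaving out 1 of 3 replicates can never shift a mean by a whole SD and so is no sign of stability. With at least 1 read in every library as the minimum, 8 of the 9 genes counted as detected in place of 5. Genes with a replicate apart were 3 at a limit of 1.5-fold and 4 without a minimum, in place of 1. For these changed limits of detection and of a replicate apart, the shares over all genes were not computed, so the counts have no background. With more than 2-fold required, 6, 5 and 4 differing genes became 3, 1 and 2, in the order of the pairs in the report, since the rule is stricter. Without the minimum of reads, 5 genes differed between replicates 2 and 3 in place of 4, and the share over all genes was not computed.

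The length used decided several orders. With the longest transcript, Il1r1 moved to rank 3, Il1rap to 2, Il33 to 9 and Il1rn to 8, the ratio of Il1rap to Il1r1 turned to 1.15 and that of Il1rn to Il1a was 0.117. Without division by length, Il1b moved to rank 9 and Il1rn to 7, the ratio of Il1rn to Il1b turned to 1.28, and the ratios of Il1rn to Il1a, Il1r2 to Il1r1, Il1rap to Il1r1 and Il1rl1 to Il33 were 0.152, 0.0109, 0.893 and 4882. With a replicate left out, Il1b ranked 7 to 8 and Il33 7 to 8, the ratio of Il1rn to Il1a was 0.0386 to 0.101 and that of Il1rl1 to Il33 was 1148 to 3524. Depth limited Il1b, Il33, Il1rn and Il1r2, none of which had more than 14 reads in a library.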
